A study of Mus musculus with 9 samples.

Results

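The 10 genes described here are Lyz2, Mrc1, Cd68, Adgre1, Csf1r, Cd163, C1qa, C1qb, C1qc and Lyve1, which are commonly used to mark tissue macrophages or encode complement C1q. They were taken by symbol from a table of 17314 genes measured in mouse gastrocnemius, the large calf muscle. All 10 were in the table, and all 10 were among the 13044 genes that passed the filter on low counts. The study, which concerns thyroid hormone receptor α and ageing of skeletal muscle, sequenced messenger RNA from whole muscle at 6, 15 and 21 months of age, with 3 mice per age and 1 library per mouse. Strain, sex and any treatment are not given in the labels used here, and age is the only difference between groups that they state. Mice are called 1, 2 and 3 within each age after the number in their label, and the labels state no link between same-numbered mice. Levels are CPM, the counts of a gene scaled to a common library total, after TMM scaling, a correction for differences in RNA composition between libraries.

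Resident macrophages are long-lived phagocytes of the connective tissue between muscle fibres, where they clear debris and damaged cells and take up proteins such as haemoglobin complexes. Their survival depends on signals through the receptor encoded by Csf1r. C1q, the first component of the classical complement pathway, is assembled from the chains encoded by C1qa, C1qb and C1qc, and tissue macrophages are a main source of it. In bulk muscle, fewer macrophages and less of an RNA per macrophage cannot be told apart.

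The C1q genes lie side by side on the minus strand of chromosome 4 of GRCm38.p6, the assembly also called mm10. C1qb (Entrez 12260) spans 136880126 to 136886200, C1qc (12262) 136889801 to 136892936 and C1qa (12259) 136895916 to 136898844. They are separated by 3600 and 2979 bases, and the whole cluster covers 18719 bases. Promoters of 6 of the 10 genes were taken from the RefSeq promoter table for GRCm38.p6: Mrc1, C1qb, C1qc, Cd163, Lyz2 and Cd68. Each ran from 250 bases before to 50 bases after the start. Shown here are the promoters of C1qb and C1qc, which encode chains of the same protein (C1qa was not among the 6). That of Cd163 is shown since the ratio of C1q to it did not overlap between 6-month and older mice. Capitals mark GAGGAA or AGGAAGT, which are core letters of sites of the myeloid ETS factor PU.1, on either strand (TTCCTC or ACTTCCT when read in reverse). The C1qb sequence is chr4:136886151-136886450 and the C1qc sequence chr4:136892865-136893164, both on the minus strand, and the Cd163 sequence is chr6:124304401-124304700 on the plus strand.
C1qb: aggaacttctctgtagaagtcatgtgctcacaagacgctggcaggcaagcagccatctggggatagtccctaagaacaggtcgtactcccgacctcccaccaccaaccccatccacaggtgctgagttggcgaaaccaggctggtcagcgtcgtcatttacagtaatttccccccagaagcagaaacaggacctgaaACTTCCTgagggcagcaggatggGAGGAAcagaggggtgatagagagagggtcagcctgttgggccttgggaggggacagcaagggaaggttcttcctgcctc
C1qc: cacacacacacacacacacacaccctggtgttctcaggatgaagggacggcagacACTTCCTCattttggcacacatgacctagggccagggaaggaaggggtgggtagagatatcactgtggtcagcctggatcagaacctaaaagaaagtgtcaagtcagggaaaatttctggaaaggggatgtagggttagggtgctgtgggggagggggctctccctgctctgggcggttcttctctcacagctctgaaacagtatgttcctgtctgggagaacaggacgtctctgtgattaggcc
Cd163: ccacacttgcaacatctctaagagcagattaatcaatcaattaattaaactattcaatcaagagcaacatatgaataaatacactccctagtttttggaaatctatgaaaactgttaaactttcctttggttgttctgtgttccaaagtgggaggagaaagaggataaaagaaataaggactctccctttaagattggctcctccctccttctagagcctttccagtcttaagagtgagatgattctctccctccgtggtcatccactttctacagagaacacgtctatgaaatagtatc

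In the C1qb promoter GAGGAA began 30 bases and AGGAAGT 53 bases before the start. In the C1qc promoter they overlapped, at 193 and 195 bases before the start. The Cd163 promoter held neither in this window. Over the 6 genes, 4 held GAGGAA (Mrc1, C1qb, C1qc and Cd68) against 28.3% of the 32851 promoters of the same length in the table. AGGAAGT was in 4 (Mrc1, C1qb, C1qc and Lyz2) against 9.35%. Csf1r was excluded by hand from the genes searched, so its absence says nothing of its promoter. The counts therefore cover only these 6 genes and not the 10. These matches describe letters and are not evidence of binding.

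Total estimated counts ran from 15354396 to 17317856 per library. Transcripts of skeletal muscle such as Ckm, Acta1 and Myh4 were abundant in every library. Mouse 2 at 6 months, mouse 1 at 15 months and mouse 3 at 21 months stood apart on the first principal component, which held 35.2% of the variance. Their scores were -48.0, 27.6 and 26.7, and results without these 3 libraries are given where they matter. The labels do not say whether mice came from separate litters or cages, and p-values measure only the spread between these mice.

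Across the 10 genes, mean fitted levels were lower at 15 and 21 months than at 6 months, but no gene passed the test in any comparison. From 6 to 21 months all 10 log2 fold changes were below 0, with a median of -0.34, while 52.0% of all tested genes were below 0 with a median of -0.01. From 6 to 15 months all 10 were below 0 with a median of -0.50, against 51.4% and a median of -0.01 over all genes. From 15 to 21 months 3 of 10 were below 0 with a median of 0.06, against 50.8% of all genes. The first and second comparisons share the 6-month mice, so their directions are not independent. The 10 genes also rose and fell together across mice (median r of 0.816 over 45 pairs), so 10 of 10 does not count 10 separate observations. Without mouse 1 at 6 months, 5 of 10 were lower at 21 months and 7 of 10 at 15 months. edgeR's quasi-likelihood test with Benjamini-Hochberg adjustment called 0 of the 10 at each comparison, where it called 0.0153% of all tested genes at 21 against 6 months, 0.00767% at 15 against 6 months and 0% at 21 against 15 months. At an unadjusted p under 0.05 there were 3, 4 and 0 of the 10, against 10.6%, 10.3% and 1.82% of all genes: Cd163, Adgre1 and Csf1r in the first and these with Lyz2 in the second. DESeq2 called 0 of the 10 in each of these comparisons, where it called 1.41%, 0.791% and 0.0174% of all genes it tested.

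A test for any difference between the 3 ages also called 0 of the 10 with edgeR, against 0% of all genes. There, 3 of the 10 had an unadjusted p under 0.05, against 8.55% of all genes. DESeq2's likelihood ratio test called 1 of the 10, Cd163 (adjusted p = 0.0395), against 1.47% of all genes. Groups did not overlap, with the older mice lower, for 2 of the 10 genes at 21 against 6 months (Adgre1 and Cd163), against 8.31% of all genes. The same 2 genes did not overlap at 15 against 6 months, against 7.14%. At 21 against 15 months there were 0 of 10, against 3.30%.

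**Figure D1:**
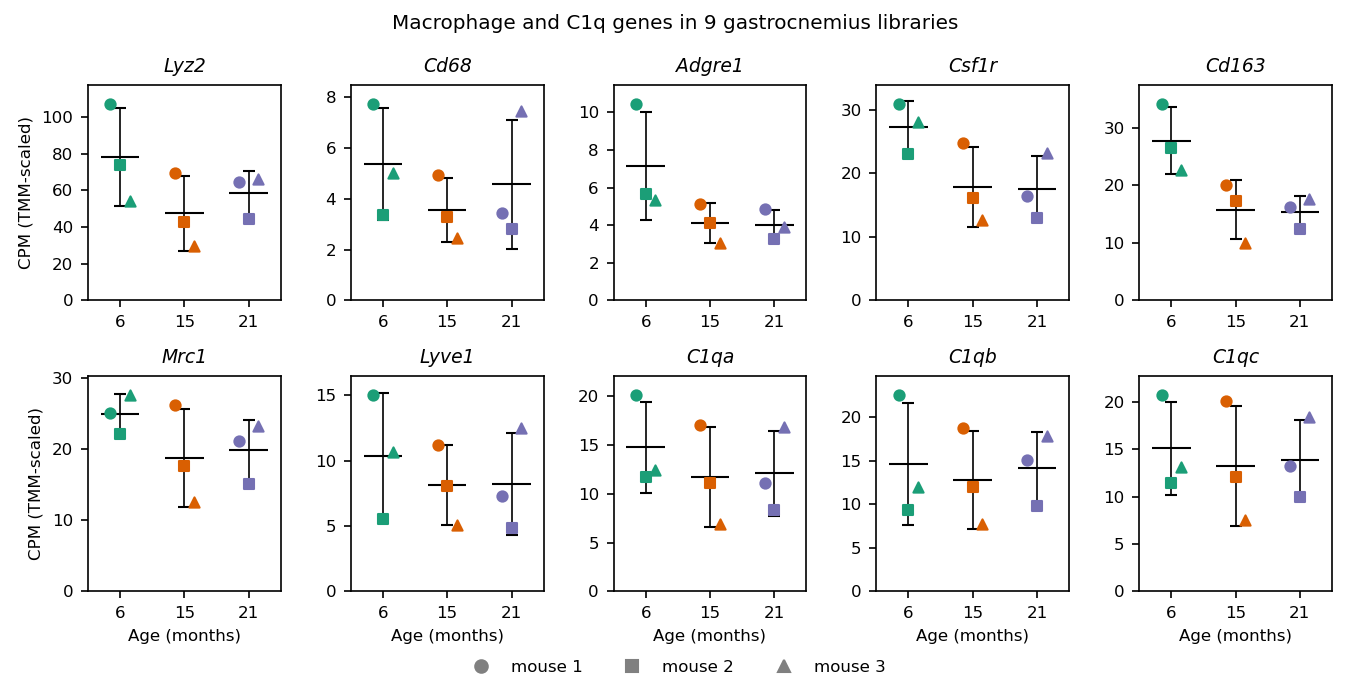
TMM-scaled CPM of each of the 10 genes (vertical axis, from 0, own scale per gene) in 9 libraries by age in months; each symbol is 1 mouse, horizontal bars are means and whiskers the SD of 3 mice. Mouse 1 at 6 months is the highest point in 9 of the 10 panels and mouse 3 at 15 months the lowest in 9, and the 6-month mice lie apart from the older mice only for Adgre1 and Cd163.

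Cd163 encodes a scavenger receptor that takes up complexes of haemoglobin and haptoglobin, and lies on chromosome 6 at 124304636 to 124330529 (plus strand, Entrez 93671). It was at 34.1, 26.5 and 22.6 CPM in the 3 mice at 6 months, 20.0, 17.26 and 10.04 CPM at 15 months, and 16.2, 12.4 and 17.5 CPM at 21 months. Every older mouse lay below every 6-month mouse. Means were 27.7 ± 5.82, 15.8 ± 5.15 and 15.35 ± 2.69 CPM (SD, n = 3 each). The log2 fold change was -0.85 (SE 0.24) at 21 against 6 months (edgeR adjusted p = 0.241, DESeq2 adjusted p = 0.0541). It was -0.81 (SE 0.24) at 15 against 6 months (edgeR adjusted p = 0.337, DESeq2 adjusted p = 0.101). Cd163 thus had the lowest log2 fold change of the 10 genes in both comparisons with 6 months, without passing the adjusted threshold in either tool. From 15 to 21 months the difference was -0.04 (SE 0.25). Leaving out single libraries kept the 21 against 6 months value between -0.97 and -0.68.

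Mrc1 encodes the mannose receptor CD206, an uptake receptor for sugar-bearing proteins that marks resident macrophages, and lies on chromosome 2 at 14229414 to 14332023 (plus strand, Entrez 17533). It was at 25.2, 22.2 and 27.7 CPM at 6 months, 26.3, 17.6 and 12.6 CPM at 15 months, and 21.2, 15.1 and 23.3 CPM at 21 months. The ages overlapped, and the 6-month mice lay closer together than the older ones. The log2 fold changes were -0.33 (SE 0.24) at 21 months and -0.41 (SE 0.24) at 15 months against 6 months, with edgeR adjusted p of 0.666 and 0.598. The value at 21 months was -0.17 without mouse 2 at that age, and the value at 15 months was -0.19 without mouse 3 and -0.73 without mouse 1 at that age.

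Lyve1 encodes a hyaluronan receptor found on a subset of resident macrophages and on lymphatic endothelium, and lies on chromosome 7 at 110850607 to 110862953 (minus strand, Entrez 114332). It was at 15.0, 5.51 and 10.7 CPM at 6 months, 11.2, 8.08 and 5.12 CPM at 15 months, and 7.27, 4.89 and 12.5 CPM at 21 months. Mice of each age spanned a range of more than 2-fold, and all ages overlapped. The log2 fold changes against 6 months were -0.34 (SE 0.42) at 21 months and -0.35 (SE 0.42) at 15 months, with edgeR adjusted p of 0.82 and 0.798. They were 0.0228 and 0.0081 when mouse 1 at 6 months was left out. Of 7 lymphatic endothelial markers, all were in the table, and their summed level was 37.4 to 56.1 CPM at 6 months, 33.7 to 41.2 CPM at 15 months and 37.8 to 47.6 CPM at 21 months. Their part in the Lyve1 values was not tested.

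Adgre1 encodes F4/80, an adhesion receptor used as a general marker of mouse macrophages, and lies on chromosome 17 at 57358581 to 57483529 (plus strand, Entrez 13733). It was at 10.4, 5.63 and 5.33 CPM at 6 months, 5.145, 4.13 and 3.03 CPM at 15 months, and 4.87, 3.28 and 3.89 CPM at 21 months. The groups did not overlap against 6 months, although the lowest 6-month mouse and the highest 15-month mouse were close. The log2 fold change was -0.83 (SE 0.29) at 21 months (edgeR adjusted p = 0.349) and -0.80 (SE 0.29) at 15 months (adjusted p = 0.4). Without mouse 1 at 6 months these were -0.45 and -0.42.

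Lyz2 encodes the lysozyme of macrophages and other myeloid cells, an enzyme that cuts bacterial cell walls, and lies on chromosome 10 at 117277541 to 117282272 (minus strand, Entrez 17105). It was at 107.1, 74.0 and 54.1 CPM at 6 months, 69.8, 42.9 and 29.9 CPM at 15 months, and 64.8, 44.4 and 66.2 CPM at 21 months. Within each age the mice differed widely, and all ages overlapped. The log2 fold changes were -0.72 (SE 0.32) at 15 months (edgeR adjusted p = 0.467) and -0.42 (SE 0.31) at 21 months (adjusted p = 0.672) against 6 months. Its close copy Lyz1 was listed at 4.80 to 16.2 CPM, and the ratio of Lyz2 to Lyz1 was 6.08 to 8.94. How the counting divided reads that match both copies is not given, and both values are uncertain to that extent. Without mouse 1 at 6 months the log2 fold changes of Lyz2 were -0.43 at 15 months and -0.13 at 21 months. Without mouse 3 or mouse 1 at 15 months the former was -0.48 or -1.10, and without mouse 2 at 21 months the latter was -0.26.

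Cd68 encodes a glycoprotein of the lysosomes of phagocytes and lies on chromosome 11 at 69664213 to 69666170 (minus strand, Entrez 12514). It was at 7.73, 3.38 and 5.03 CPM at 6 months, 4.96, 3.27 and 2.46 CPM at 15 months, and 3.43, 2.80 and 7.47 CPM at 21 months. One mouse at each end of the age range, mouse 1 at 6 months and mouse 3 at 21 months, lay far above the rest. The log2 fold changes were -0.24 (SE 0.41) at 21 months and -0.59 (SE 0.42) at 15 months against 6 months, with edgeR adjusted p of 0.881 and 0.659. Leaving out mouse 1 at 6 months gave 0.12 and -0.24, and without mouse 3 at 21 months the former was -0.79.

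Csf1r encodes the receptor for the growth factors CSF1 and IL-34 and lies on chromosome 18 at 61105572 to 61131139 (plus strand, Entrez 12978). It was at 30.9, 23.0 and 28.1 CPM at 6 months, 24.9, 16.2 and 12.6 CPM at 15 months, and 16.4, 13.01 and 23.2 CPM at 21 months. The lowest 6-month mouse, mouse 2, was overlapped by mouse 1 at 15 months and by mouse 3 at 21 months. All 3 of these mice stood apart on the first principal component. The log2 fold changes were -0.64 (SE 0.26) at 21 months (edgeR adjusted p = 0.412) and -0.61 (SE 0.26) at 15 months (adjusted p = 0.453). Without the 3 outlying libraries they were -1.01 (adjusted p = 0.119) and -1.03 (adjusted p = 0.178). That removal takes out the lowest 6-month value and the highest values at 15 and 21 months, so it enlarges the differences by construction. Csf1r shares 873 exonic bases with Hmgxb3 on the opposite strand, and since the use of strand in counting is not given, reads there could belong to either gene.

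The C1q chains differed less between ages than between mice. C1qa was at 20.05, 11.7 and 12.4 CPM at 6 months, 17.1, 11.03 and 6.89 CPM at 15 months, and 11.1, 8.35 and 16.8 CPM at 21 months. C1qb was at 22.6, 9.33 and 11.96 CPM, then 18.8, 11.96 and 7.71 CPM, then 15.1, 9.78 and 17.9 CPM at the same ages. C1qc was at 20.7, 11.5 and 13.2 CPM, then 20.1, 12.1 and 7.58 CPM, then 13.3, 10.02 and 18.4 CPM. In all 3 genes 1 mouse of each age, mouse 1 at 6 and 15 months and mouse 3 at 21 months, was above the others, and the ages overlapped. Against 6 months the log2 fold changes at 21 months were -0.29 (SE 0.34), -0.04 (SE 0.38) and -0.12 (SE 0.35) for C1qa, C1qb and C1qc, with edgeR adjusted p of 0.815, 0.982 and 0.933. At 15 months they were -0.33 (SE 0.35), -0.19 (SE 0.38) and -0.19 (SE 0.35), with adjusted p of 0.775, 0.889 and 0.877. The direction at 21 months turned with single mice: without mouse 1 at 6 months the values were 0.00158, 0.42 and 0.17. Without mouse 2 at 21 months they were -0.08, 0.17 and 0.07.

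**Figure D2:**
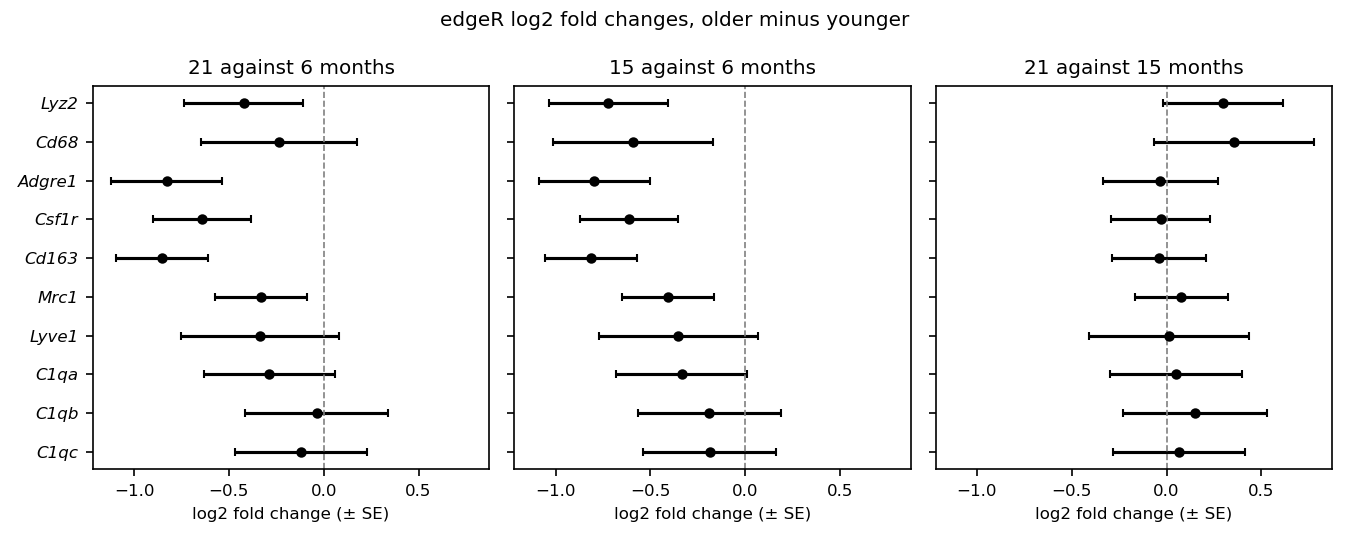
edgeR log2 fold changes, older minus younger (horizontal axis), of the 10 genes (vertical axis) in the 3 comparisons of ages; bars are 1 SE and the dashed line is no difference. Points lie to the left of the line for all 10 genes against 6 months, farthest for Cd163 and Adgre1 and nearest for C1qb, and scatter about the line at 21 against 15 months.

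The chains kept nearly equal shares of their summed CPM. C1qa made up 33.6% ± 2.24, 31.0% ± 0.462 and 29.8% ± 1.81 (SD, n = 3) at 6, 15 and 21 months. C1qb made up 32.1% ± 3.46, 34.1% ± 0.588 and 35.6% ± 2.41, and C1qc 34.4% ± 1.42, 34.9% ± 0.912 and 34.7% ± 0.953. The share of C1qc stayed within its spread, while the ratio of C1qa to C1qc was lower in every 15-month and every 21-month mouse than in every 6-month mouse.

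Per kilobase of exon, C1qb and C1qa stood at 12.8 ± 4.59 and 12.3 ± 4.15 CPM (SD over the 9 libraries), and C1qc at 7.30 ± 2.39 CPM per kilobase. Lyz2 was the highest of the 10, at 46.7 ± 17.0 CPM per kilobase, above C1qb in 9 of 9 libraries. Below C1qc came Csf1r at 3.63 ± 1.15, Cd163 at 3.59 ± 1.34, Cd68 at 3.58 ± 1.56, Mrc1 at 3.33 ± 0.811 and Lyve1 at 3.06 ± 1.24 CPM per kilobase. These 5 neighbours lay within their spread: Csf1r exceeded Cd163 in 4 libraries of 9, Cd163 exceeded Cd68 in 6 and Cd68 exceeded Mrc1 in 2. Adgre1 was lowest, at 1.57 ± 0.68 CPM per kilobase, and below Lyve1 in 9 of 9 libraries. These lengths come from a GENCODE annotation and the lengths that the authors' counting used are not given.

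Cd163 was then set against C1q within each library, which removes a level common to both. The ratio of summed C1q CPM to Cd163 CPM was 1.86, 1.23 and 1.66 in the 6-month mice, 2.79, 2.04 and 2.21 in the 15-month mice, and 2.44, 2.28 and 3.02 in the 21-month mice. Every older mouse had a higher ratio than every 6-month mouse, and the 15- and 21-month mice overlapped. The difference in the mean log2 ratio was 0.72 at 21 against 6 months and 0.58 at 15 against 6 months, each with a two-sided exact permutation p = 0.1, the smallest that 3 against 3 mice allow. At 21 against 15 months it was 0.14 (exact permutation p = 0.5). Leaving out single libraries gave 0.54 to 0.84 and 0.40 to 0.70 against 6 months. Without the 3 outlying libraries the differences were 0.43 and 0.27. This ratio was chosen after the values of both genes had been seen.

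**Figure D3:**
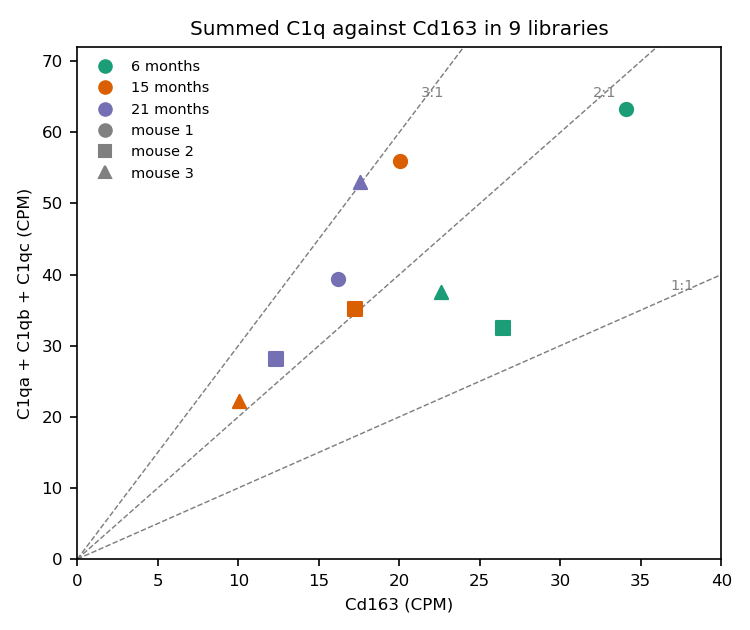
Summed CPM of C1qa, C1qb and C1qc (vertical axis) against CPM of Cd163 (horizontal axis) in the 9 libraries; colour gives the age, the symbol the mouse, and dashed lines mark ratios of 1, 2 and 3 to 1. The 6-month mice lie below the line of 2 to 1, with ratios of 1.23 to 1.86, and the older mice on or above it, with ratios of 2.04 to 3.02.

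Other pairs of the 10 genes were compared in the same way, 45 in all. Pairs that share a gene are not independent, and the C1q chains moved closely together (r of 0.916 to 0.98). The counts of pairs are therefore descriptions. At 21 against 6 months the ratios of 11 pairs did not overlap between ages (24.4%), against 16.8% of all pairs of tested genes. Of these, 7 set a receptor lower relative to C1q at the older age: Cd163 to C1qa, C1qb and C1qc, and Adgre1 and Csf1r each to C1qb and C1qc. The other 4 were Lyz2 higher relative to Adgre1 and to Cd163, Mrc1 higher relative to Csf1r, and C1qa lower relative to C1qc. At 15 against 6 months there were again 11 pairs (24.4%), against 14.8% of all pairs, of which 6 set Lyz2 and Cd163 lower relative to each C1q chain. The other 5 were Adgre1 lower relative to C1qb and C1qc, Cd68 lower relative to C1qb, C1qa lower relative to C1qc, and Mrc1 higher relative to Csf1r. At 21 against 15 months there were 4 pairs (8.89%), against 6.79% of all pairs. In these, Lyz2 was higher relative to Mrc1, Csf1r and Cd163, and Cd68 higher relative to Csf1r.

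The mice of 1 age differed from each other more in these genes than in most others. The SD of log2 CPM within ages had a median of 0.511 over the 10 genes, from 0.371 for Mrc1 to 0.655 for Lyve1. Over all tested genes the median was 0.188, and over the 7466 genes in the same range of mean CPM it was 0.165. Each of the 10 had a larger SD than 83.4 to 96.3% of tested genes. Age accounted for 62.6% of the variance of log2 CPM for Cd163, 53.4% for Adgre1 and 48.7% for Csf1r. It accounted for 3.39% for C1qb, 5.13% for C1qc and 7.15% for Lyve1. The median over the 10 was 23.6%, close to 23.4% over all tested genes.

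The 10 genes were high and low in the same mice. For 9 of the 10 genes the highest level was in mouse 1 at 6 months, and for 9 the lowest was in mouse 3 at 15 months. The summed CPM of the 10 genes was 293.8, 192.6 and 191 in the 6-month mice, 218.2, 144.6 and 98.0 in the 15-month mice, and 173.6, 124 and 207.3 in the 21-month mice. Across the 9 libraries Pearson's r between 2 of the genes ran from 0.589 (Cd163 and C1qb) to 0.98 (C1qa and C1qc), with a median of 0.816 over 45 pairs. Spearman's rho ran from 0.433 to 0.967, with a median of 0.8. The r of deviations from the age means had a median of 0.886. Leaving out the 2 libraries farthest from the median of the genes' mean level, which were mouse 1 at 6 months and mouse 3 at 15 months, gave a median r of 0.678, from -0.06 to 0.956. The points share libraries, and these correlations are descriptions. Some other tissue markers moved with or against the 10 genes within ages, and less so in the plain r over the 9 libraries. The median r of deviations with the mean standardised level of the 10 was -0.804 for 6 skeletal muscle markers and -0.737 for 8 fast fibre markers. It was 0.635 for 8 slow fibre markers and 0.691 for 8 blood endothelial markers, against -0.0109 over all tested genes. For fibro-adipogenic progenitor, lymphatic endothelial, adipocyte and erythrocyte markers it was 0.477, 0.456, -0.253 and -0.0758. Among the blood endothelial markers Vwf, at -0.512, went the other way. Fast fibre markers ran from -0.93 for Atp2a1 and -0.875 for Myh4, which is on both lists, to 0.795 for Myh1. Mb, a skeletal muscle marker, was at 0.754. The plain r over the 9 libraries had medians of -0.244 for skeletal muscle, -0.235 for fast fibre, 0.0184 for slow fibre and 0.332 for endothelial markers. Without the 2 farthest libraries these medians were -0.231, -0.36, 0.332 and 0.252. The part of these markers in the level of the 10 genes was not tested.

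Counts of the 10 genes lower at the older age depended on single mice. Without mouse 1 at 6 months, 5 of 10 were lower at 21 against 6 months (median -0.06) and 7 of 10 at 15 against 6 months (median -0.32). Without mouse 2 at 21 months, 7 of 10 were lower at 21 months (median -0.12), and without mouse 3 at 15 months, 8 of 10 at 15 months (median -0.29). Leaving out mouse 3 at 21 months gave 10 of 10 with a median of -0.69, and leaving out mouse 1 at 15 months 10 of 10 with a median of -0.82. Without the 3 outlying libraries all 10 were lower in both comparisons, with medians of -0.84 and -0.995. These 3 were the lowest 6-month mouse and the highest 15- and 21-month mice by median log2 CPM of the 10 (3.549, 4.286 and 4.155). Leaving them out therefore lowers the older ages against 6 months by construction, with 2 mice left per age. From 15 to 21 months the direction turned with 1 library: without mouse 1 at 15 months 0 of 10 were lower (median 0.41), and without mouse 3 at 15 months 8 of 10 were (median -0.21). Likewise 9 of 10 were lower without mouse 3 at 21 months (median -0.17) and 0 of 10 without mouse 2 at 21 months (median 0.25).

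Markers of other cell types were read in the same libraries. Of 12 dendritic cell and MHC class II markers, all were in the table, and their summed level was 303.5, 135.1 and 134 CPM in the 6-month mice, 97.2 to 119.4 CPM at 15 months and 105.4 to 137.5 CPM at 21 months. Mouse 1 at 6 months was thus the highest for these as for the macrophage genes, and the part of such cells in the results was not tested. Of 10 monocyte markers, all were in the table, with summed levels of 296.9 to 411.2 CPM at 6 months, 211.6 to 386.6 CPM at 15 months and 239.2 to 302.2 CPM at 21 months. Most of that sum came from Nr4a1 and Ace, which other cells also express, while Ly6c2 was at 0 in 2 libraries and at most 0.44 CPM. Of 13 neutrophil markers, 10 were in the table, with summed levels of 5.57 to 6.29 CPM at 6 months, 2.97 to 7.93 CPM at 15 months and 4.93 to 6.74 CPM at 21 months. Camp and Mpo were at 0 in 8 libraries each. Of 14 T, B and NK cell markers, 12 were in the table, with summed levels of 0.801 to 3.58 CPM over all libraries. Slow fibre markers, 8 of 8 in the table, summed to 94.1 to 218.1 CPM at 6 months, 326.4 to 1023 CPM at 15 months and 187.1 to 939.1 CPM at 21 months. Fast fibre markers, 8 of 8, summed to 131700 to 143700 CPM, 97690 to 141700 CPM and 108300 to 133600 CPM at these ages, lowest in mouse 1 at 15 months and mouse 3 at 21 months. Blood endothelial markers, 8 of 8, summed to 441.9 to 622.9 CPM, 508 to 667.2 CPM and 524.8 to 606.5 CPM. The part of endothelium and of fibre composition in the macrophage values was not tested.

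Other genes of the macrophage and complement system were read from lists chosen for their known roles, and edgeR called 0 genes of them in any comparison with all 9 libraries and the filter on low counts. It called 1 CSF1 axis gene at 21 against 6 months under another setting: Runx1 with no filter, and Cebpb without mouse 3 at 6 months. At an unadjusted p under 0.05 there were 2 resident macrophage, 1 pan-phagocyte, 3 CSF1 axis, 5 complement, 0 lysosome and 0 activation genes at 21 against 6 months, and 3, 5, 1, 7, 1 and 3 at 15 against 6 months. Over all tested genes these shares were 10.6% and 10.3%, and the counts of resident macrophage and pan-phagocyte genes at 21 months, 2 of 21 and 1 of 19, were at or below that. Of 21 tested genes of muscle resident macrophages, 16 were lower at 21 against 6 months (median -0.29) and 17 at 15 against 6 months (median -0.29). Without mouse 3 at 15 months the latter was 14 (median -0.15). Leaving out mouse 1 at 6 months gave 12 of 21 at 21 months (median -0.27) and 13 at 15 months (median -0.22). Stab1, a scavenger receptor, was at 28.3 ± 5.22, 23.3 ± 2.52 and 19.7 ± 2.52 CPM at 6, 15 and 21 months, with a log2 fold change of -0.52 (SE 0.15, edgeR adjusted p = 0.248) at 21 months. Mgl2, a lectin receptor, was at -0.56 (SE 0.21, adjusted p = 0.377). The growth arrest factor Gas6, a bridge between dying cells and phagocyte receptors, was at 0.01 (SE 0.11), and the transcription factor Maf at -0.20 (SE 0.15), in the same comparison. Maf and Gas6 are also made by other cells of muscle.

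Of 19 tested pan-phagocyte and Fc receptor genes, 16 were lower at 21 against 6 months (median -0.36), 18 at 15 against 6 months (median -0.63) and 3 at 21 against 15 months (median 0.25). Without mouse 1 at 6 months, 11 of 19 were lower at 21 months (median -0.08) and 15 at 15 months (median -0.24). The medians were -0.62 at 21 months without mouse 2 at 6 months and -0.97 at 15 months without mouse 1 at 15 months. Both were over 21 genes, since the filter was run again without that library. Cx3cr1, the fractalkine receptor, was at 1.57, 0.563 and 0.92 CPM at 6 months, 0.186, 0.308 and 0.253 CPM at 15 months, and 0.361, 0.298 and 0.618 CPM at 21 months. Its 15-month mice lay below all 6-month mice, with a log2 fold change of -1.997 (SE 0.50, edgeR adjusted p = 0.25), at a level of few reads. Ms4a6c was at -1.10 (SE 0.36, adjusted p = 0.354) and Laptm5, a lysosomal membrane protein of blood cells, at -0.63 (SE 0.28, adjusted p = 0.486) in that comparison. Lyn, a signalling kinase, was at 0.24 (SE 0.13, adjusted p = 0.554).

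Of 12 tested genes of the CSF1 axis and myeloid transcription factors, 9 were lower at 21 against 6 months (median -0.14) and 10 at 15 against 6 months (median -0.32). With mouse 1 at 6 months left out these were 5 (median 0.03) and 8 (median -0.10), so the direction at 21 months turned with that mouse. Other single libraries gave medians of -0.27 to -0.05 at 21 months, and -0.20 at 15 months without mouse 3 of that age. Runx1, a transcription factor of blood cells that denervated muscle fibres also express, went the other way. It was at 3.52, 2.75 and 2.88 CPM at 6 months, 3.72, 3.27 and 3.22 CPM at 15 months, and 11.1, 7.64 and 6.24 CPM at 21 months. Every 21-month mouse lay above every younger mouse, with a log2 fold change of 1.44 (SE 0.22, edgeR adjusted p = 0.0585) against 6 months, and DESeq2 called it, as did edgeR with no filter (adjusted p = 0.0362). Cebpb was at -1.09 (SE 0.33, edgeR adjusted p = 0.261), Mef2c at -0.15 (SE 0.13) and Nr1h3 at -0.06 (SE 0.12) at 21 against 6 months.

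Of 23 tested complement genes other than C1q, 13 were lower at 21 against 6 months (median -0.10) and 14 at 15 against 6 months (median -0.11). The medians were -0.03 at 21 months without mouse 2 of that age and -0.01 at 15 months without mouse 3 of that age. C1ra, the protease that C1q activates, was at 30.0, 35.4 and 32.7 CPM at 6 months, 22.8, 24.2 and 24.8 CPM at 15 months, and 25.5, 24 and 23.4 CPM at 21 months. Every older mouse lay below every 6-month mouse, with log2 fold changes of -0.43 (SE 0.09, edgeR adjusted p = 0.135) at 21 months and -0.45 (SE 0.09, adjusted p = 0.194) at 15 months. DESeq2 called C1ra in both comparisons (adjusted p = 0.0447 and 0.0419). Clu, which encodes clusterin, an inhibitor of the terminal complement complex, was at 67.2 ± 9.06, 42.9 ± 4.75 and 62.8 ± 8.45 CPM, and DESeq2 called it at 15 against 6 months (adjusted p = 0.0107; edgeR log2 fold change -0.65, SE 0.14, adjusted p = 0.203). C3, the central component, was at 231.8 ± 57.4, 138.6 ± 23.4 and 160 ± 48.4 CPM (edgeR adjusted p = 0.354 at 15 and 0.462 at 21 against 6 months). Cd55, which protects cells from complement, was at 0.03 (SE 0.13) at 21 against 6 months.

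Of 16 tested phagocyte lysosome genes, 11 were lower at 21 against 6 months (median -0.12) and 12 at 15 against 6 months (median -0.10). Leaving out mouse 1 at 6 months gave 9 (median -0.02) and 11 (median -0.03). The protease gene Ctss was at 28.8, 11.3 and 8.34 CPM at 6 months, 9.30, 6.35 and 4.67 CPM at 15 months, and 9.25, 7.16 and 9.88 CPM at 21 months, again highest in mouse 1 at 6 months. Its log2 fold change at 15 against 6 months was -1.25 (SE 0.42, edgeR adjusted p = 0.368). Psap and Ctsd, which muscle fibres also express, were at -0.19 (SE 0.10) and -0.17 (SE 0.13) at 21 against 6 months, and Ctsz at 0.16 (SE 0.08). Of 18 macrophage activation genes 9 passed the filter on low counts, of which 6 were lower at 21 months and 8 at 15 months against 6 months (medians -0.35 and -0.30). When mouse 1 at 6 months was left out, 5 and 4 of 9 were lower, with medians of -0.07 and 0.08, so the direction at 15 months rested on that mouse. Without mouse 1 at 15 months the median at 15 months was -0.92, and without mouse 2 at 21 months that at 21 months was -0.15. Both were over 10 genes, since the filter was run again without that library. Retnla was at 21.9 ± 10.1, 11.2 ± 4.42 and 11.8 ± 4.81 CPM and Lgals3 at 10.1 ± 6.95, 4.75 ± 0.274 and 6.61 ± 0.888 CPM by age, with edgeR adjusted p of 0.468 and 0.628 at 21 against 6 months.

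**Figure D4:**
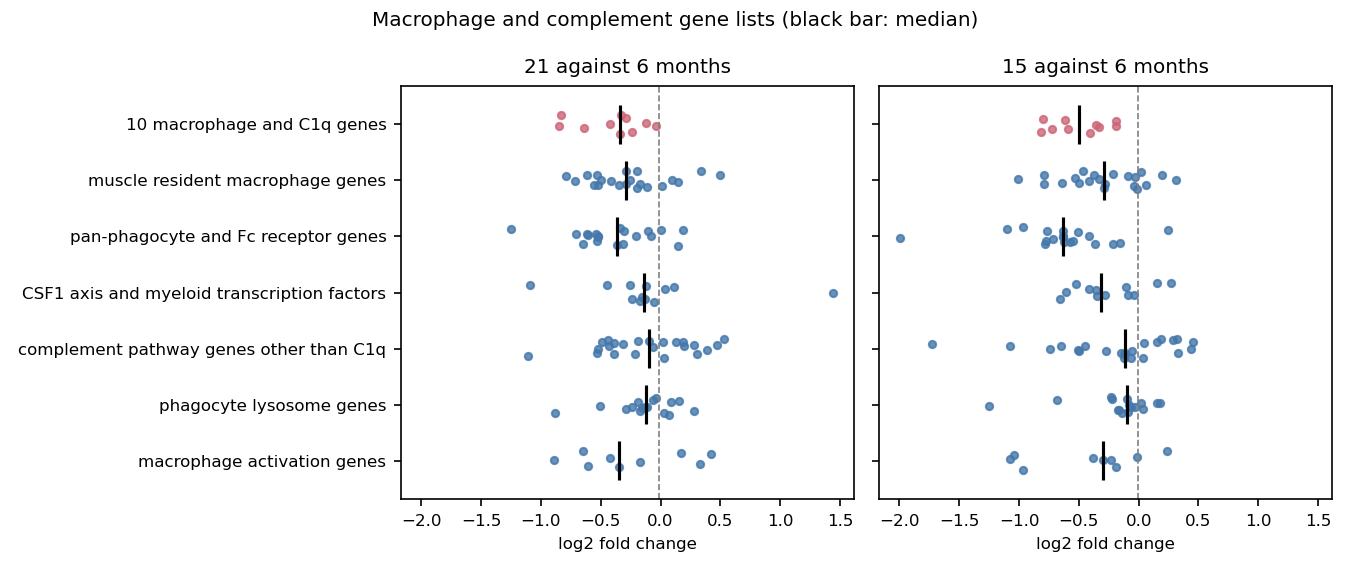
edgeR log2 fold changes (horizontal axis) of the tested genes of each list (1 point per gene, jittered vertically) at 21 and at 15 against 6 months; black bars are list medians and the dashed line is the median of all tested genes. With all 9 libraries medians lie left of the line in each list, from -0.10 for complement genes other than C1q to -0.36 for pan-phagocyte genes at 21 months, and in the left panel the Runx1 point at 1.44 stands alone on the right.

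The genes whose levels followed the 10 most closely across the 9 libraries, of 9753 candidates with a mean of at least 5 CPM, were Pld1, Tubb2a, Litaf, Ago4, Cited2, Katnal1, Zfp280d and Dazap1. Their Pearson's r with the mean standardised level of the 10 ran from 0.95 for Pld1 to 0.91 for Dazap1, and none is on the lists above. The floor of 5 CPM kept out list genes at lower levels with r as high. Among these were Itgam (r of 0.954, mean 3.87 CPM), C5ar1 (0.948, 2.22 CPM) and Cd209d (0.932, 2.17 CPM). Tubb2a had a Spearman's rho of 0.967 and kept an r of 0.936 without the 2 farthest libraries. Among the lists, the median r was 0.857 for pan-phagocyte genes, of which 18 of 19 exceeded 0.5, and 0.688 for resident macrophage genes, of which 13 of 21 did. It was 0.593 for activation genes, 0.416 for the CSF1 axis, 0.304 for lysosome genes and 0.226 for other complement genes, while 12.8% of all tested genes exceeded 0.5. Without the 2 farthest libraries these medians were 0.685 for pan-phagocyte, 0.55 for resident macrophage, 0.382 for activation, 0.201 for CSF1 axis, 0.17 for lysosome and 0.149 for other complement genes. For dendritic cell and MHC class II markers the median r was 0.618 over all libraries and -0.263 without the 2 farthest.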

How the data were processed

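RNA from gastrocnemius of 9 mice was selected with oligo(dT) beads and sequenced from DNA nanoballs, per the labels' protocols. An estimated count for each gene and library was deposited by the authors; 90.0 to 90.7% of values were whole within 0.005, and all values of the 10 genes were. The submitters' processing notes name mm10; aligner, counter and use of strand: not given in the sources used here. Columns were matched to samples by name, and 0 columns belonged to other samples.

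Estimated counts were rounded, filtered with filterByExpr (minimum count 10) and scaled with TMM (factors 0.923 to 1.05). edgeR 4.0.16 (R 4.3.3) fitted all 9 libraries with age as a factor (quasi-likelihood, 6 residual degrees of freedom), with Benjamini-Hochberg adjustment over 13044 genes at 0.05. Log2 fold changes are older minus younger. Correlations use log2 CPM with a prior count of 2. Alternatives were DESeq2 1.42.0, RLE and total count scaling, other filters, the replicate block, only the ages compared, and leaving out libraries. The fit was tested on simulated counts. The 10 genes and all lists were chosen with earlier results of these data known. Named list genes are those called by edgeR, the 2 with the highest mean and the 2 with the smallest p per list. Also named are the 8 genes with the highest r with the mean standardised level of the 10. These have a mean of at least 5 CPM, and predicted genes and pseudogenes were left out. Cd163 promoter, Lyz1 and the ratio of C1q to Cd163 were added after values were seen. C1q protein sequences were not used here.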

Additional observations from a re-analysis of the deposited data

How the results depend on the processing

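Every alternative run called 0 of the 10 genes in each comparison of 2 ages, and for any difference between ages every one called 0 except DESeq2, which called 1, Cd163. With 3 mice per age and total counts of at least 15354396, differences of the size seen in C1q lie within the spread between mice. At 21 against 6 months C1qb turned to 0.0402 with total count scaling, which moved the median of all genes to 0.07, and to 0.045 with the replicate block. With the replicate block, medians of the 10 were -0.32, -0.49 and 0.09 at 21 against 6, 15 against 6 and 21 against 15 months. Same-numbered mice correlated at -0.418 to 0.406, and 2 of 9 libraries correlated best with their own number. Same-numbered mice thus had no steady correlation, and whether a number stands for mice handled together was not tested. At 21 against 15 months the block gave 1.75e-05 for Cd163 and -0.0283 for Lyve1. There, leaving out the 3 outlying libraries gave 0.18 for Adgre1, 0.027 for Csf1r, 0.0609 for Cd163 and -0.12 for Lyve1. The cause was not tested.

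Leaving out single libraries turned some directions. At 21 against 6 months values ran from -0.79 to 0.12 for Cd68, -0.60 to 0.00158 for C1qa, -0.28 to 0.42 for C1qb, -0.38 to 0.17 for C1qc and -0.77 to 0.0228 for Lyve1. At 15 against 6 months they ran from -0.57 to 0.27 for C1qb, -0.61 to 0.11 for C1qc and -0.66 to 0.0081 for Lyve1. At 21 against 15 months they ran from -0.21 to 0.16 for Adgre1, -0.28 to 0.28 for Csf1r, -0.28 to 0.17 for Cd163, -0.14 to 0.39 for Mrc1, -0.26 to 0.43 for C1qa, -0.11 to 0.53 for C1qb, -0.21 to 0.49 for C1qc, -0.42 to 0.32 for Lyve1 and -0.19 to 0.67 for Cd68.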
